A study of Mus musculus with 10 samples.

Results

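The genes described here are 9 transcripts by which mouse pluripotent and early germline cells are commonly recognised: Dppa2, Dppa4 and Dppa5a of the developmental pluripotency associated genes, the threonine-catabolising enzyme gene Tdh, the undifferentiated-cell genes L1td1 and Utf1, and the LIN28 pathway genes Lin28a, Lin28b and Trim71. They were chosen by name, with earlier results of these data known. All 9 were found among the 27998 genes of the E14Tg2a count table and among the 32285 genes of the R1 count table. Single-cell RNA-seq had been done on 10 libraries, 1 per condition. Of these, 8 were made from E14Tg2a, a male mouse embryonic stem cell (ESC) line: ESC kept in 2i with LIF (a MEK inhibitor, PD0325901, and a GSK3β inhibitor, CHIR99021; 2i ESC), ESC kept in serum with LIF (S+L ESC), epiblast-like cells after 1, 2 and 3 days in Activin A, bFGF and knockout serum replacement (d1, d2 and d3 EpiLC), epiblast stem cells passaged in Activin A and bFGF (EpiSC), and embryoid bodies (EB) made from d2 EpiLC and grown for 2 or 4 days with BMP4, SCF, LIF and EGF (d2 and d4 EB). The remaining 2 were d4 EB of R1, another male mouse ESC line: R1 WT, and dCD, a clonal R1 derivative in which point mutations remove the catalytic activity of the histone methyltransferases MLL3 and MLL4 while the proteins are still made. Because the mutations are point mutations and the transcripts are still made, 3′ tags of their genes check nothing about the genotype: Kmt2c was at 47.5 CPM in WT and 53.8 CPM in dCD, and Kmt2d at 29.4 and 29.1 CPM.

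Within the E14Tg2a EB, the study lists the barcodes of 91 d2 cells and 44 d4 cells as primordial germ cell-like cells (PGCLC), and the other 446 and 324 cells are called other EB cells here. All 6 PGC markers examined (Prdm1, Prdm14, Tfap2c, Dppa3, Nanos3 and Dnd1) were at least 2-fold higher in the listed cells on both days, with a summed level of 455 CPM in listed against 43.2 CPM in other d2 cells and of 407 against 51.7 CPM on d4. Levels are given as CPM, the unique molecular identifiers (UMIs) of a gene in each 1000000 UMIs pooled over the cells of a group, with exact 95% Poisson intervals, and ratios carry exact conditional 95% intervals. Those intervals cover counting error only. With 1 library per condition there is no replicate, so no difference below was tested and none can be told apart from a difference between 2 libraries of 1 condition. The E14Tg2a libraries held 227 to 537 cells with a median of 21658 to 36750 UMIs, and the R1 libraries 1416 (WT) and 1699 (dCD) cells with a median of 13187.5 and 11751. The 2 tables were made with different kits, so levels were compared only within a table. In pooled values, fewer cells that contain a transcript and less of it per cell cannot be told apart, so shares of cells are given beside the levels that need them.

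Dppa2 and Dppa4 are small nuclear proteins with a SAP domain that bind DNA together and keep a set of bivalent promoters free of DNA methylation in pluripotent cells. TDH is the mitochondrial enzyme that begins the breakdown of threonine to glycine and acetyl-CoA, on which mouse ESC are known to depend for one-carbon units. UTF1 is a chromatin-bound repressor and L1TD1 an RNA-binding protein derived from a retrotransposon, both found in undifferentiated cells. LIN28A and LIN28B bind the precursors of let-7 microRNAs and block their maturation, TRIM71 is an RNA-binding repressor of messages, and the messages of all 3 are themselves classical let-7 targets. Dppa2, Dppa4, Tdh, L1td1 and Utf1 are 5 genes on the list of PGCLC genes that the study drew from these same cells, Dppa2, Dppa4 and Dppa5a are 3 genes on its list of EpiLC genes, and Lin28b is 1 gene on its list of EpiSC genes. The directions of those genes in those groups are therefore a description and not independent evidence.

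In the pluripotent libraries, Dppa2 and Dppa4 were lowest among ESC in 2i, highest in d1 EpiLC and nearly absent in EpiSC. The genes are neighbours on chromosome 16 of GRCm38 (Dppa4 at chr16:48283733-48294237 and Dppa2 at chr16:48303908-48319723, both on the plus strand), with 9670 bases and 0 protein-coding genes between them. Dppa2 stood at 24.8 CPM in 2i ESC (21.6 to 28.3), 61.2 CPM in S+L ESC, 103 CPM in d1 EpiLC (97.5 to 109.7), 31.3 CPM in d2 EpiLC, 3.05 CPM in d3 EpiLC (2.21 to 4.11) and 0.940 CPM in EpiSC (0.486 to 1.64). Dppa4 stood at 36.1, 73.9, 119, 61.0 and 30.8 CPM in the same order up to d3 EpiLC, and at 2 UMIs in all of the EpiSC library. Both genes thus had their highest library at d1, 4.18-fold above 2i ESC for Dppa2 (3.61 to 4.85) and 3.29-fold for Dppa4 (2.91 to 3.74). From d2 to d3 EpiLC they parted: Dppa2 was 10.2-fold lower at d3 (7.45 to 14.4), the lowest log2 ratio but 1 of the 13240 genes compared, while Dppa4 was 1.98-fold lower (1.75 to 2.24). A UMI of Dppa2 was found in 63.7% of d2 and 8.27% of d3 EpiLC, against 83.4% and 55.9% for Dppa4.

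The number of Dppa2 UMIs per 100 Dppa4 UMIs follows this within a library, where depth cancels. It was 68.7 in 2i ESC (57.5 to 81.9), 82.7 in S+L ESC, 87.1 in d1 EpiLC, 51.3 in d2 EpiLC and 9.91 in d3 EpiLC (7.07 to 13.6). The d3 EpiLC library stood apart from all the others with at least 10 UMIs of both genes, which spanned 51.3 to 87.1 among E14Tg2a groups. In the EB groups the number lay at 67.7 in listed d2 PGCLC, 61.5 in listed d4 PGCLC and 75.7 in other d2 EB cells, with intervals that overlapped. The 3′ tags of 2 genes are not equally well caught, so the number is read only for its change between groups, and this measure was added after the values had been seen.

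**Figure D1:**
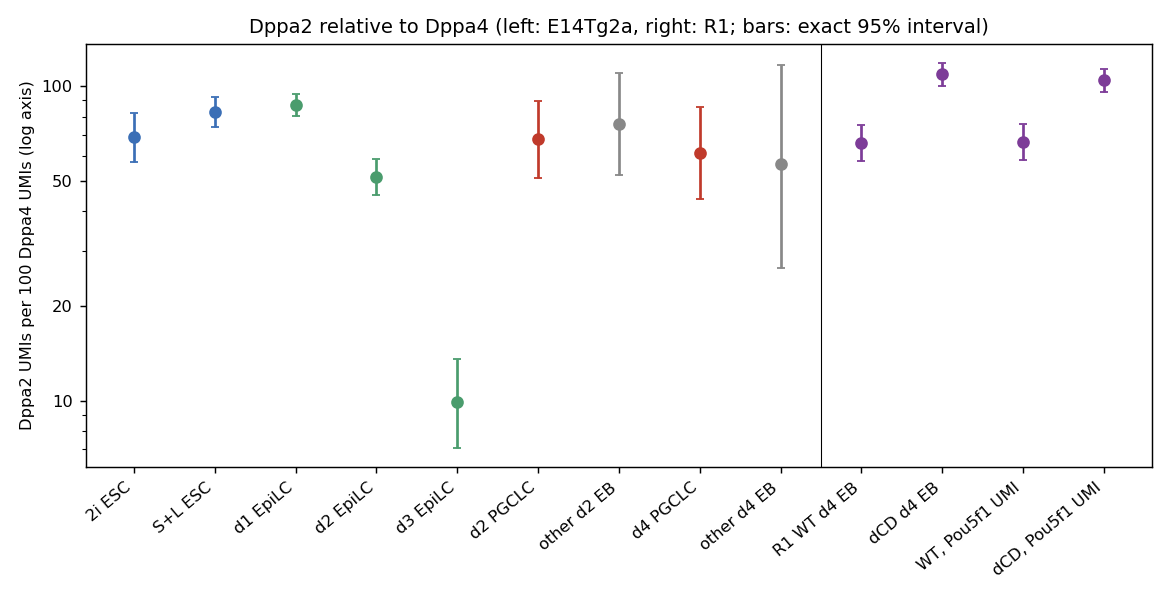
UMIs of Dppa2 per 100 UMIs of Dppa4 in each group (log axis), E14Tg2a groups left and R1 groups right of the line; points are pooled UMIs and bars exact 95% intervals, and EpiSC (12 and 2 UMIs) is left out. The d3 EpiLC library sits at 9.91 and the other E14Tg2a groups between 51.3 and 87.1, and dCD (109) lies above WT (66.0).

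Dppa5a (chr9:78367052-78368177, minus strand), which encodes a KH-domain RNA-binding protein, was present in every 2i ESC, S+L ESC and EpiLC cell. Its level was 4668 CPM in 2i ESC and 4533 CPM in S+L ESC, and then 2977, 2121 and 824 CPM in d1, d2 and d3 EpiLC. The EpiSC library held 11 UMIs of Dppa5a in 373 cells, or 0.862 CPM (0.430 to 1.54), which is 2461-fold below d2 EpiLC (1375 to 4930) and the lowest ratio of all 13380 genes compared. Unlike Dppa2 and Dppa4, Dppa5a was not highest at d1: it was 1.57-fold lower there than in 2i ESC (1.55 to 1.59). The unprocessed pseudogenes Dppa5b and Dppa5c lie on the same chromosome (chr9:78245550-78246135 and chr9:78271998-78272583), and reads shared with them could have been dropped or moved by the counting, so the absolute level of Dppa5a is uncertain.

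Tdh (chr14:63492347-63509092, minus strand) was highest in 2i ESC and went down with each day of EpiLC culture. It stood at 495 CPM in 2i ESC (481 to 510), 203 CPM in S+L ESC, 362 CPM in d1 EpiLC, 72.2 CPM in d2 EpiLC, 29.1 CPM in d3 EpiLC (26.4 to 32.1) and 4.39 CPM in EpiSC (3.31 to 5.70). The widest step between EpiLC days was from d1 to d2, 5.02-fold lower at d2 (4.65 to 5.42), and only 0.962% of the 13195 genes compared had a lower ratio. Tdh was also 2.43-fold lower in S+L than in 2i ESC (2.31 to 2.57), where Dppa2 and Dppa4 were 2.47-fold (2.11 to 2.89) and 2.05-fold (1.79 to 2.34) higher. A UMI of Tdh was found in 100% of 2i ESC, 80.3% of d2 EpiLC and 51.1% of d3 EpiLC. The antisense gene Gm17232 overlaps Tdh, and whether the counting used strand is not given in the sources used here.

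Utf1 (chr7:139943789-139945112, plus strand) and L1td1 (chr4:98726734-98738480, plus strand) both had their highest value at d1 and were still present at high levels in EpiSC. Utf1 was at 192 CPM in 2i ESC, 359 CPM in S+L ESC, 912 CPM in d1 EpiLC (894 to 930), 646 CPM in d2 EpiLC, 443 CPM in d3 EpiLC and 303 CPM in EpiSC. L1td1 was at 111, 129, 224, 183 and 82.2 CPM in the same order up to d3 EpiLC and at 216 CPM in EpiSC (208 to 224). The L1td1 levels of d1 EpiLC and EpiSC could not be told apart (ratio 1.04, 0.984 to 1.10). Utf1 was 4.75-fold higher in d1 EpiLC than in 2i ESC (4.51 to 5.01) and L1td1 2.02-fold (1.87 to 2.17), and L1td1 fell below 2-fold under both other scalings (log2 0.85 with TMM and 0.86 with median-of-ratios factors). After d1 their orders differed, since among these 6 libraries L1td1 was lowest at d3 EpiLC and Utf1 in 2i ESC. The RefSeq sequence just before their starts is shown (GRCm38.p6, both on the plus strand, 5′ to 3′; capitals mark the GC box, GGGCGG, found on either strand).

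Utf1, chr7:139943606-139943788: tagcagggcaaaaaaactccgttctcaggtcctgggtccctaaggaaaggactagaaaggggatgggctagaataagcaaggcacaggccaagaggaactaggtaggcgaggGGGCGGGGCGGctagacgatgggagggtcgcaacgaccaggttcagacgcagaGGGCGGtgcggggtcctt
L1td1, chr4:98726504-98726733: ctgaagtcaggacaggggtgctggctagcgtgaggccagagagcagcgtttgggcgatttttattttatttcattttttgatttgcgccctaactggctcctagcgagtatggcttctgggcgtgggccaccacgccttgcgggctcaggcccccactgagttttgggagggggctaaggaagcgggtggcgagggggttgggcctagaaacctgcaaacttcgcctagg

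The 183 bases of Utf1 hold 3 GC boxes, of which 2 overlap by a base, and 10 CpG dinucleotides, and the 230 bases of L1td1 hold 0 GC boxes and 11 CpG. Among the 27025 promoters of the table, each read over the 250 bases before the RefSeq start, 32.9% hold a GC box and the median number of CpG is 6. Over the table's full 250 bases, which for both genes run past the start in the GENCODE annotation, Utf1 holds 4 GC boxes and 14 CpG and L1td1 0 and 11. Neither window holds the octamer ATGCAAAT (1.61% of promoters) or the E-box CACGTG (6.05%). These are letter matches in a window and no evidence that a factor binds. Promoters of 5 of the 9 genes were matched in the table (L1td1, Utf1, Lin28a, Lin28b and Trim71), and none is shown for Dppa2, Dppa4, Dppa5a and Tdh.

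Lin28a, Lin28b and Trim71 were not extinguished in EpiSC, and Lin28a and Lin28b were highest there. Lin28a (chr4:134003330-134018841, minus strand) was at 44.8 CPM in 2i ESC (40.4 to 49.4), 56.7 CPM in S+L ESC, 108 CPM in d1 EpiLC, 88.3 CPM in d2 EpiLC, 93.2 CPM in d3 EpiLC and 121 CPM in EpiSC (115 to 127). Lin28b (chr10:45376620-45486395, minus strand) was scarce throughout, with 9 UMIs in all 2i ESC (1.03 CPM, 0.470 to 1.95), 4.55 CPM in S+L ESC, 55 UMIs in d1 EpiLC, 11.9 and 11.1 CPM in d2 and d3 EpiLC and 16.1 CPM in EpiSC. From 2i ESC to EpiSC Lin28b thus differed 15.7-fold (8.11 to 34.8), with Lin28a at 44.8 and 121 CPM in the same libraries. Trim71 (chr9:114507133-114564369, minus strand) had the narrowest range of the 9 genes over the 8 libraries, 2.44-fold (2.21 to 2.70) between 55.5 CPM in 2i ESC and 136 CPM in d2 EB. Its levels in S+L ESC (72.1 CPM), d4 EB (71.3), EpiSC (66.3), d2 EpiLC (65.0) and d3 EpiLC (64.6) formed a run in which no neighbours could be told apart. Gm13061 lies on the other strand of Lin28a and C130032M10Rik on that of Trim71, so part of those counts is uncertain if strand was not used.

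What these last 3 genes share in sequence is the let-7 site. The mature let-7 family members of the RefSeq table have the seed GAGGUAG, bases 2 to 8, shown in capitals for 3 of the 9 sequences that carry it:

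mmu-let-7a-5p: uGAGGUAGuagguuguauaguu
mmu-let-7g-5p: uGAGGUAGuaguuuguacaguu
mmu-miR-98-5p: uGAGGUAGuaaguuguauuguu

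The match to this seed, CTACCTC, was searched on the sense strand of each gene's longest annotated 3′ UTR. Trim71 holds 4 matches in 5512 bases, Lin28b 4 in 4445 bases and Lin28a 2 in 2775 bases, while the other 6 genes hold 0 in UTRs of 122 (Utf1) to 1012 (Dppa2) bases. All 4 sites of Trim71 and both of Lin28a are followed by an A, the letter opposite the first base of the microRNA, against 1 of 4 in Lin28b. Those 7 sites are shown with the seed match in capitals (GRCm38, all on the minus strand, 5′ to 3′):

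Lin28a site 1, chr4:134005182-134005206: gcctgttgaaCTACCTCatttttgc
Lin28a site 2, chr4:134004544-134004568: cgccacaaacCTACCTCactgtgtt
Lin28b site 1, chr10:45381015-45381039: ggcgggaagtCTACCTCatgcaagc
Trim71 site 1, chr9:114512465-114512489: tgcctaagtcCTACCTCagcttaaa
Trim71 site 2, chr9:114512369-114512393: taatttctatCTACCTCaactcttt
Trim71 site 3, chr9:114509040-114509064: tatggattttCTACCTCaattttgg
Trim71 site 4, chr9:114509014-114509038: aaaaagttgtCTACCTCacgtcggc

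Of 21677 protein-coding genes with a 3′ UTR, 8.75% hold the match at least once and 1.03% at least 2 times, and among the 3901 genes with a UTR of at least 2500 bases 21.9% hold it. The 6 genes without a match have UTRs near or below the median length of 961 bases. Mature let-7 itself was not measured, since the assay reads polyadenylated messages.

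**Figure D2:**
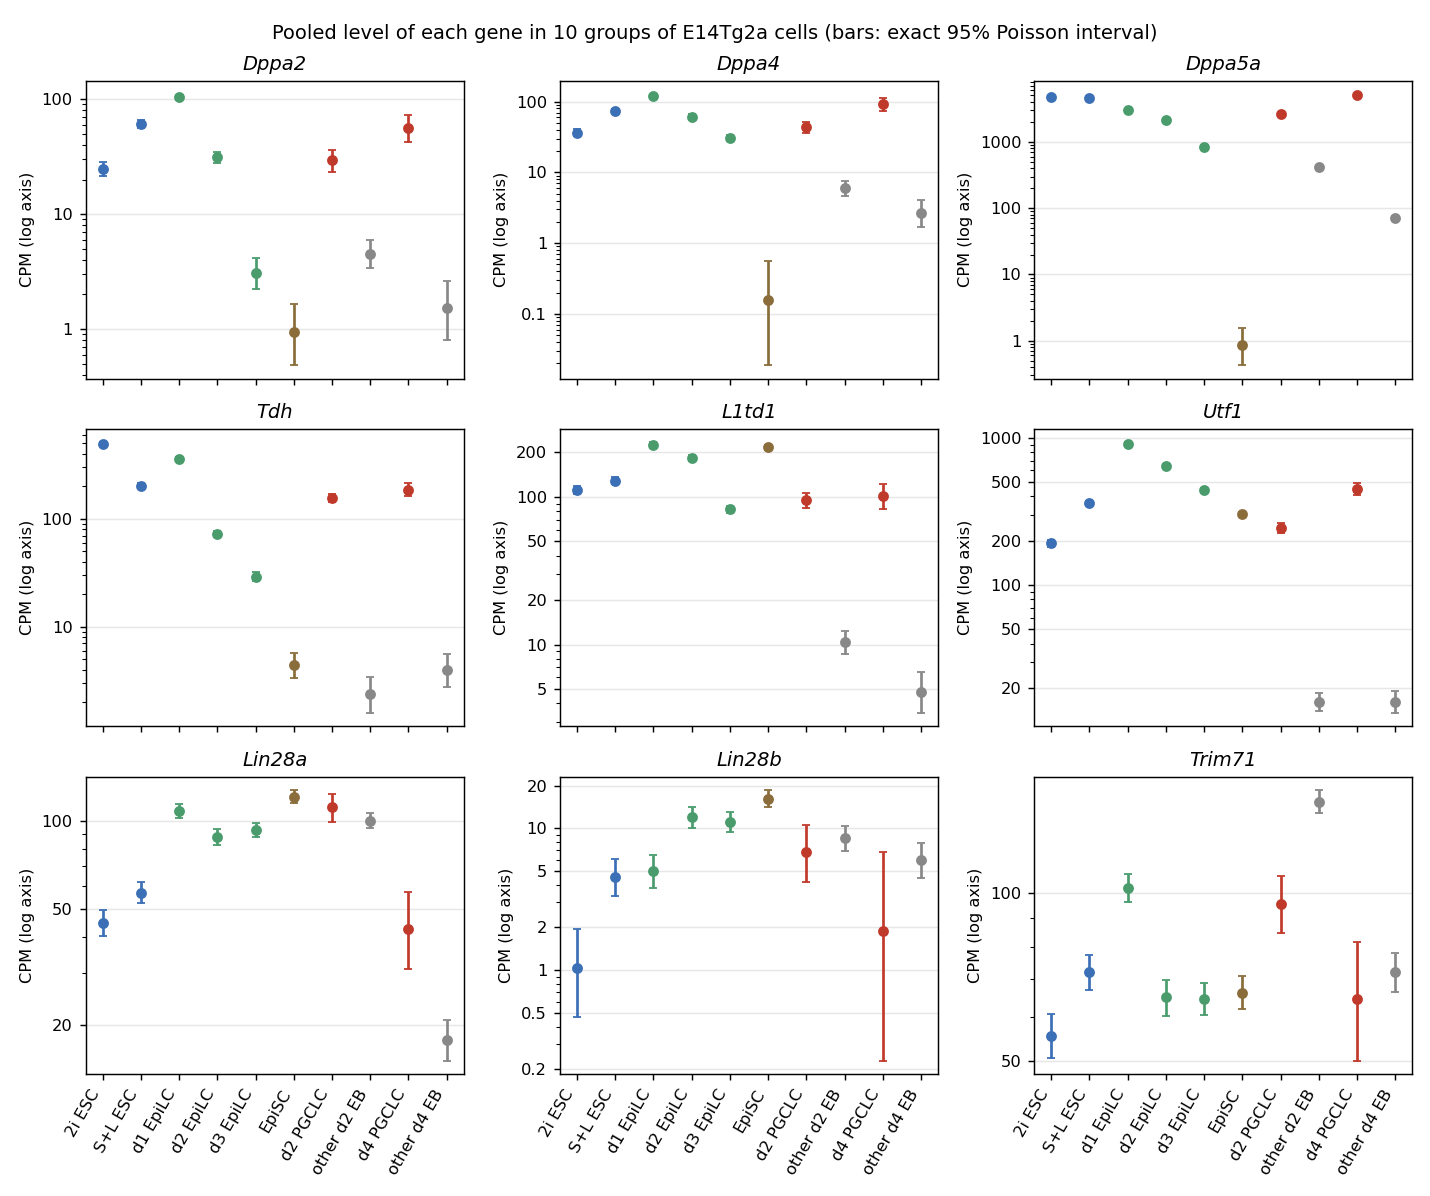
Pooled level of each gene in CPM (log axes that differ between panels) in 10 groups of E14Tg2a cells: ESC in blue, EpiLC in green, EpiSC in brown, listed PGCLC in red and other EB cells in grey; bars are exact 95% Poisson intervals. Dppa5a reaches 4668 CPM in 2i ESC and 0.862 CPM in EpiSC, whereas Trim71 stays between 55.5 and 146 CPM.

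Counted by a rule of size, at least 2-fold on the log2(CPM + 1) scale, 6 of the 9 genes were higher in d1 EpiLC than in 2i ESC and 0 lower, where 12.1% of 12479 genes were higher and 6.54% lower. The 6 were Dppa2, Dppa4, Utf1, L1td1, Lin28a and Lin28b (4.87-fold, 2.39 to 11.2, from 9 UMIs in 2i ESC), and the median log2 ratio of the 9 was 1.25 against 0.17 over all genes. With cells thinned to 1 depth Lin28b fell below 2-fold (log2 0.76) and Trim71 passed it (log2 1.06 against 0.87). TMM factors moved every log2 ratio of this step by -0.15 (and those of d2 against d1 EpiLC by -0.12 and of EpiSC against d2 EpiLC by -0.10) and left 5 genes higher here, and the share of higher among all genes past 2-fold went from 64.9% to 54.7%. In d2 against d1 EpiLC, 1 gene was higher (Lin28b, 2.38-fold, 1.73 to 3.33) and 2 were lower (Tdh, and Dppa2 at 3.31-fold, 2.93 to 3.74), beside 9.91% and 6.28% of all genes. Dppa4, at log2 -0.95, joined the lower genes under both other scalings. In d3 against d2 EpiLC, 0 genes were higher and 4 lower (Dppa2, Dppa5a at 2.58-fold, Tdh at 2.48-fold and L1td1 at 2.22-fold), beside 3.44% and 3.1% of all genes. In EpiSC against d2 EpiLC, 0 were higher and 5 lower (Dppa5a, Dppa4, Dppa2, Tdh and Utf1), beside 8.47% and 6.13% of all genes. Of these 5, Dppa2 was 33.3-fold (18.8 to 65.0), Tdh 16.4-fold (12.5 to 22.0) and Utf1 2.13-fold lower (2.05 to 2.22), and for Dppa4 2 against 680 UMIs gave a ratio of 389 (107 to 3218). In S+L against 2i ESC, 3 were higher (Dppa2, Dppa4 and Lin28b) and 1 lower (Tdh), beside 9.73% and 2.41% of all genes, and Dppa4 fell short of 2-fold under TMM (log2 0.95 against 1.01).

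The other genes of the Tdh pathway went with Tdh in some steps and against it in others. Of 20 genes of threonine, glycine and one-carbon metabolism, 1 was at least 2-fold higher and 6 lower in d1 EpiLC than in 2i ESC, with a median log2 ratio of -0.07. Phgdh, which begins serine synthesis, stood at 186 CPM in 2i ESC, at 46.2 CPM after 1 day of EpiLC culture and at 316 CPM after 2 days. Gcat, the enzyme that acts directly after TDH, stood at 178, 61.9 and 162 CPM. In d2 against d1 EpiLC, where Tdh was 5.02-fold lower, 7 of the 20 were higher and 1 (Mat2a) lower. In S+L against 2i ESC, where Tdh was also lower, 0 were higher and 2 lower (Phgdh and Gcat), with a median log2 ratio of -0.36 against 0.10 over all genes. In d3 against d2 EpiLC 0 were higher and 2 lower, with a median of -0.44 against -0.02. In EpiSC against d2 EpiLC 0 of the 20 passed 2-fold in either direction, with a median of -0.33 against 0.09. Of 21 genes of the LIN28 and let-7 pathway, 6 were higher and 1 lower in d1 EpiLC than in 2i ESC, and 4 were higher and 0 lower in EpiSC than in d2 EpiLC. The median log2 ratio of the 21 was 0.42 against 0.17 over all genes in the first comparison and 0.19 against 0.09 in the second. The 4 genes higher in EpiSC were the let-7 target genes Arid3a, Ccnd2, E2f5 and Hmga2. Other let-7 targets of the list, such as Hmga1 and Myc, did not pass 2-fold there. Hmga2, a chromatin protein of embryonic cells, went from 5.83 to 30.5 CPM.

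Inside the EB, 6 of the 9 genes were far higher in the listed PGCLC and the 3 LIN28 pathway genes mostly were not. The listing was drawn from the expression of these same cells and 5 of the 6 are on the study's PGCLC gene list, so the values describe the listed cells. On d2, 6 genes were at least 2-fold higher in listed than in other cells and 0 lower, where 6.06% of 12539 genes were higher and 10.3% lower. Tdh stood furthest apart, at 156 CPM in listed cells (142 to 171) and 2.39 CPM in the others (1.59 to 3.45), a ratio of 65.5 (44.7 to 99.6) that 99.992% of genes lay below. Utf1 was at 245 against 16.1 CPM, a ratio of 15.2 (12.9 to 17.9). L1td1 was at 94.8 against 10.3 CPM, a ratio of 9.18 (7.39 to 11.5). The 3 Dppa genes had the smaller ratios of the 6, at 7.25 for Dppa4 (43.3 against 5.97 CPM), 6.48 for Dppa2 (29.3 against 4.52 CPM) and 6.39 for Dppa5a (2666 against 417 CPM). Lin28a was at 111 against 100.2 CPM (ratio 1.11, 0.978 to 1.26) and Lin28b at 6.82 against 8.54 CPM (0.799, 0.468 to 1.30), so neither could be told apart between the groups, and both changed sign when cells were thinned. Trim71 was lower in listed cells, at 95.5 against 146 CPM (0.656, 0.576 to 0.745).

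On d4 the ratios of the same 6 genes lay between 21.0 and 70.4. In that library 7 genes were at least 2-fold higher in listed cells and 1 lower, where 8.64% of 12378 genes were higher and 31.3% lower. The all-gene median log2 ratio was -0.46 there and -0.21 under TMM factors, which moved each ratio by 0.29 and the share of higher among all genes past 2-fold from 21.6% to 32.5%. Dppa5a was at 5025 CPM in listed cells (4890 to 5162) and 71.4 CPM in the others (65.8 to 77.2), a ratio of 70.4 (64.7 to 76.7). Tdh was at 187 against 3.98 CPM (ratio 47.0), Utf1 at 448 or 16.1 CPM (27.8) and L1td1 at 101 or 4.80 CPM (21.0). Dppa2 was at 55.9 against 1.52 CPM (36.8, 19.9 to 73.1) and Dppa4 at 91.0 against 2.69 CPM (33.8, 21.3 to 55.9). The seventh gene was Lin28a, at 42.7 against 17.8 CPM (2.40, 1.68 to 3.37). The lower gene was Lin28b, with 2 UMIs in listed cells against 51 in the others (0.318, 0.0375 to 1.21), an interval that includes no difference. Trim71 was at 64.5 against 72.2 CPM (0.893, 0.685 to 1.15), and its log2 ratio changed from -0.16 to 0.12 under TMM.

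The d4 value of Dppa5a in other cells came from few cells: 1 cell held 218 of the 610 UMIs, and the top 5% of cells held 81.5%. The k-means cluster that holds all 44 listed d4 cells also holds 5 unlisted cells. Its leading genes, taken over all 49 cells, include the haemoglobins Hba-a1, Hba-x and Hbb-y beside Sox2, Nanog and Pou5f1. Whether listed or unlisted cells held the haemoglobin UMIs was not examined. Without the 5 unlisted cells the other d4 cells had 259 UMIs of Dppa5a, or 30.8 CPM, and the ratio was 163 in place of 70.4. The Dppa4 ratio was then 51.0 in place of 33.8. On d2, 12 unlisted cells lie in the PGCLC cluster, and leaving them out gave a Tdh ratio of 85.6 in place of 65.5. These alternatives were chosen after the concentration had been seen.

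Shares of cells showed the same split among the genes. After thinning to 15374 UMIs per cell, Tdh was detected in 56.0% of listed d2 PGCLC and 1.64% of other d2 cells, and in 86.8% of listed d4 PGCLC and 2.73% of other d4 cells. Utf1 was detected in 84.6% against 9.58% on d2 and in 92.1% against 8.19% on d4. Dppa5a was the exception on d2, with a UMI in 97.8% of listed and in 89.7% of other cells and a median of 75 and 8 UMIs per cell before thinning. On d4 it was detected in 100% of listed and 23.9% of other cells. Free RNA in droplets also gives UMIs. Its part in the EB shares, at median depths of 24045.5 and 21487.5 UMIs in the other cells, was not tested. In EpiSC, at a median depth of 31587 UMIs, 2.68% of cells held a Dppa5a UMI. That library had 11 Dppa5a UMIs in all and no cells rich in it, so its share does not measure free RNA in EB. The shares of Lin28a on d2 (75.8% and 76.9%) and Trim71 on d4 (52.6% and 57.7%) differed by less than their intervals.

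**Figure D3:**
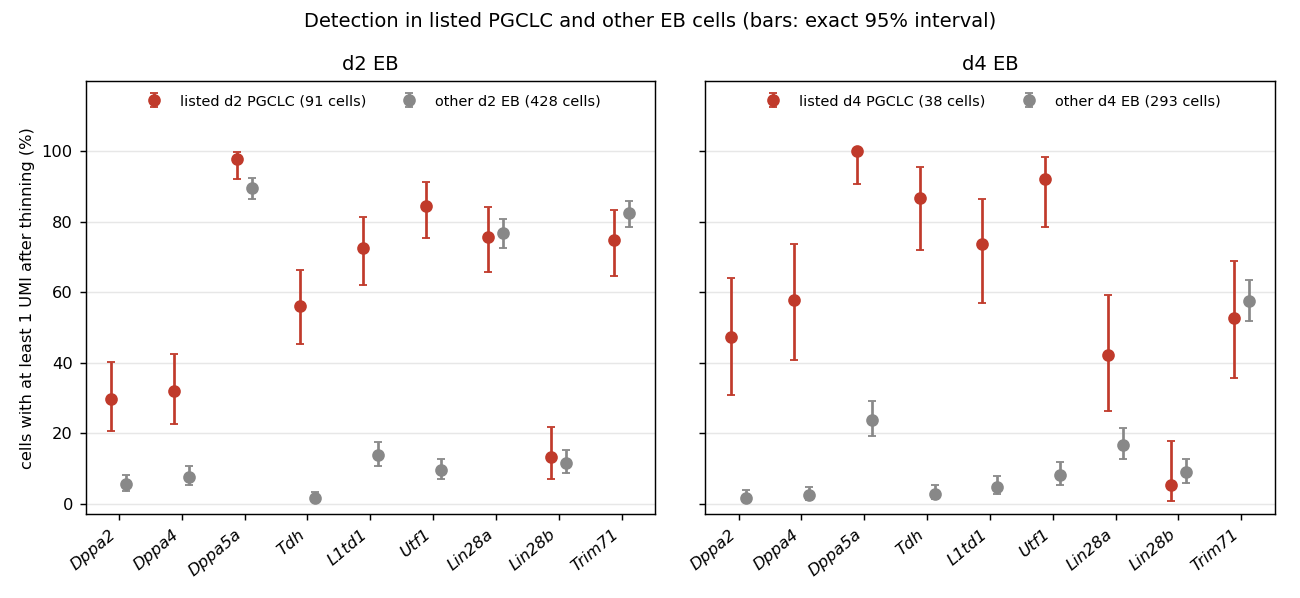
Share of cells (%) with at least 1 UMI of each gene after thinning to 15374 UMIs, in listed PGCLC (red) and other EB cells (grey) of d2 (left) and d4 (right); bars are exact 95% binomial intervals. Tdh separates the groups at 56.0% against 1.64% on d2, while Lin28a, Lin28b and Trim71 overlap on d2.

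Among the EB clusters other than the one with most PGCLC, Utf1 and L1td1 were not spread evenly. The d2 EB cells formed 3 k-means clusters: 380 cells, 5 of them listed PGCLC, with 5 of 5 detected extraembryonic mesoderm markers at least 2-fold up, 98 cells that include 86 of the listed PGCLC, and 59 extraembryonic ectoderm-like cells with 4 of 5 detected markers up. In the ectoderm-like cells Utf1 reached 66.8 CPM (56.7 to 78.2), and in the 380 cells 4.39 CPM (3.15 to 5.96), with a UMI in 55.9% and 7.37% of cells. L1td1 reached 23.3 CPM there (17.5 to 30.4), with 6.75 CPM in the 380 cells (5.19 to 8.64), and Dppa4 was at 11.2 against 5.04 CPM. Tdh had 0 UMIs in the 59 cells, which allows up to 1.29 CPM. The median depth was 35770 UMIs in the ectoderm-like cells and 23293.5 in the 380 cells. On d4, the 37 extraembryonic ectoderm-like cells again had more Utf1, at 51.7 CPM (41.7 to 63.5) against 4.70 CPM in the 253 cells with 5 of 6 mesoderm markers up, and more Trim71, at 125 CPM (109 to 143) against 55.4 CPM. The 29 endothelium-like cells, with 6 of 6 markers up, had 14.5 CPM of Lin28b (8.75 to 22.7) against 4.70 CPM in the 253 cells and 34.4 against 13.0 CPM of Lin28a. The clusters were drawn from all genes of the same cells, so these values describe them and were not tested.

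Along the germline branch, d2 PGCLC had more Tdh and less Utf1 than the d2 EpiLC from which EB were made. In d2 PGCLC against d2 EpiLC 1 gene was at least 2-fold higher (Tdh, 2.17-fold, 1.93 to 2.44) and 1 lower (Utf1, 2.64-fold, 2.44 to 2.85), beside 9.13% and 11.3% of all genes, shares near those of the 9. The Dppa2 levels of d2 PGCLC and d2 EpiLC could not be told apart (ratio 0.937, 0.731 to 1.19). Dppa4 was 1.41-fold lower (1.16 to 1.72) and L1td1 1.93-fold lower (1.70 to 2.19) in d2 PGCLC, and Dppa5a 1.26-fold higher (1.22 to 1.29). From d2 to d4 PGCLC 1 gene was higher (Dppa4, log2 ratio 1.05, at 91.0 against 43.3 CPM) and 2 lower (Lin28a at 2.60-fold, 1.90 to 3.64, and Lin28b with 2 against 20 UMIs), beside 5.98% and 12.5% of all genes. The Lin28b ratio was 0.278 (0.0315 to 1.14), an interval that includes no difference. Dppa2 (1.91-fold), Dppa5a (1.88-fold) and Utf1 (1.83-fold) lay just under the limit. The number of higher genes was 2 under TMM and 3 under median-of-ratios factors, which moved each log2 ratio by 0.09 and 0.12.

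Of the 20 threonine, glycine and one-carbon genes, 2 were at least 2-fold higher and 0 lower in listed than in other d2 cells, namely Gldc (27.6 against 9.64 CPM) and Amt, which encode parts of the glycine cleavage system. On d4, 3 were higher (Gldc, Amt and Gcat) and 4 were lower, Mthfd2, Phgdh and Shmt2 among them. Gldc was at 30.3 against 5.97 CPM on d4, and whether single cells held both Gldc and Tdh was not examined. The summed level of the 20 genes was 930 CPM in listed and 1024 CPM in other d2 cells, and 887 and 1013 CPM on d4. Of the 21 LIN28 and let-7 genes, 1 was higher (Mycn) and 4 lower (Hmga2, Myc, Ccnd2 and Arid3a) on d2, and 1 was higher and 9 lower on d4. These counts, like those of the one-carbon genes, stand beside the 31.3% of all genes that were lower in listed d4 cells and the 10.3% on d2. Hmga2 was at 62.7 CPM in listed against 336 CPM in other d2 cells, and at 10.4 against 377 CPM on d4. Of 7 core pluripotency genes, 5 and 6 were higher on d2 and d4 and 0 lower.

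The number of the 9 genes found in a cell followed the levels of its group. After thinning, a listed d2 PGCLC held a median of 5 of the 9 genes and a listed d4 PGCLC also 5, against 3 and 1 in the other cells of the same EB. At least 5 genes were detected in 69.2% of listed d2 PGCLC (58.7 to 78.5%) and 5.61% of other d2 cells, and in 84.2% and 2.05% on d4. In the stage libraries this share was 98.1% in d1 EpiLC and 15.8% in EpiSC. Dppa4 was detected in 48.1% of d2 PGCLC with a Dppa2 UMI and 25% of those without, and in 72.2% and 45% on d4. For other pairs in d2 PGCLC, Lin28a was detected in 70.6% of cells with Tdh and 82.5% of those without. It was detected in 69.0% of cells with Dppa4 and 79.0% of those without. Of the 91 d2 PGCLC, 51 held Tdh, 29 Dppa4 and 27 Dppa2 after thinning. No intervals were computed for these shares of few cells, so no direction is read for the pairs in PGCLC. In d3 EpiLC, 12 of the 16 cells that still held a Dppa2 UMI after thinning also held Dppa4 (75%), against 35.1% of the other cells.

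**Figure D4:**
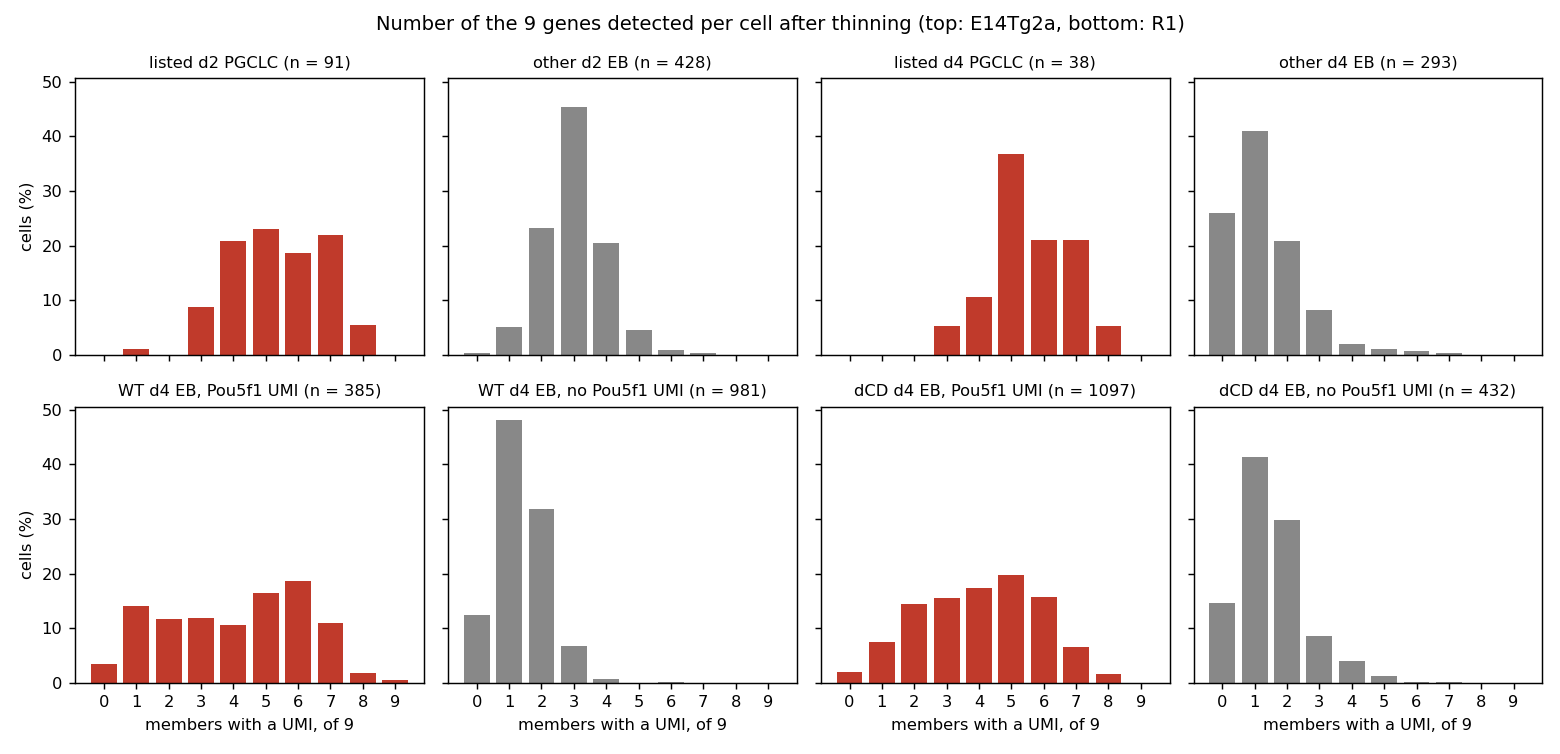
Share of cells (%, vertical axis) by the number of the 9 genes with at least 1 UMI (horizontal axis) after thinning to 15374 UMIs (E14Tg2a, top) or 6831 UMIs (R1, bottom); red panels are listed PGCLC or cells with a Pou5f1 UMI, grey panels the remaining cells. Listed PGCLC have a median of 5 genes on both days, and cells without Pou5f1 a median of 1 in WT and in dCD.

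In R1 d4 EB the comparison of dCD with WT asks whether loss of MLL3 and MLL4 catalytic activity goes along with other levels of these genes. Over all cells, 3 genes were at least 2-fold higher in dCD and 0 lower, where 6.31% of 16272 genes were higher and 3.68% lower. Dppa5a was at 650.5 CPM in WT and 1919 CPM in dCD, a ratio of 2.95 (2.89 to 3.01). Dppa2 was at 18.6 and 53.1 CPM (2.86, 2.55 to 3.22), and L1td1 at 114 and 239 CPM (log2 ratio 1.06). Dppa4 (28.1 and 48.8 CPM), Utf1 (108 and 185 CPM) and Tdh (82.2 and 133 CPM) were 1.74-, 1.72- and 1.61-fold higher. The LIN28 pathway genes went the other way, at 68.9 and 52.1 CPM for Lin28a (0.756, 0.699 to 0.817), 24.8 and 18.7 CPM for Lin28b (0.753) and 253 and 235 CPM for Trim71 (0.929). The median log2 ratio of the 9 genes was 0.77, against 0.03 over all genes.

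The libraries differed as much in their makeup. A UMI of Pou5f1, the pluripotency factor that early germ cells keep, was found in 399 of 1416 WT cells (28.2%, 25.8 to 30.6%) and in 1209 of 1699 dCD cells (71.2%, 68.9 to 73.3%). Within the cells with Pou5f1, 0 of the 9 genes were 2-fold higher and 0 lower in dCD, where 5.78% of 15094 genes were higher and 2.68% lower. There, Dppa5a was at 2064 CPM in WT and 2503 CPM in dCD (1.21, 1.19 to 1.24). Dppa2 was at 58.5 and 66.0 CPM (1.13, with 1.003 as the lower end of the interval), and its log2 ratio of 0.17 became -0.06 with a gate of 3 Pou5f1 UMIs, so no direction is read for it. With that gate only 3 of the 9 log2 ratios stayed within their counting intervals, so the intervals here do not cover the choice of gate. None of the 9 crossed 2-fold with it, and only that of Dppa2 changed sign. The other pluripotency genes were lower in dCD: Tdh at 257 and 174 CPM (1.48-fold, 1.39 to 1.57), Utf1 at 341 and 245 CPM (1.39-fold, 1.32 to 1.47), Dppa4 at 88.2 and 63.2 CPM (1.39-fold, 1.26 to 1.55) and L1td1 at 356 and 312 CPM (1.14-fold, 1.09 to 1.20). Lin28a was at 71.2 and 56.9 CPM, Lin28b at 16.2 and 18.8 CPM and Trim71 at 215 and 232 CPM. Tdh, Utf1, Dppa4 and L1td1 were thus higher in dCD over the whole library and lower in dCD within the cells with Pou5f1.

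Outside the gate the genes split by role in WT. In WT cells with no Pou5f1 UMI, Dppa2 was at 0.424 CPM, Dppa4 at 0.848, Utf1 at 1.91, Tdh at 2.76, L1td1 at 4.03 and Dppa5a at 8.19 CPM. In such dCD cells the values were 15.2, 6.22, 10.4, 10.4, 23.0 and 193 CPM. A few cells carried part of this: 12 of the 490 dCD cells, those with at least 2 UMIs of a list of 2-cell genes, held 43 Dppa2 UMIs where the other 478 held 45, and without the 12 Dppa2 was at 7.93 and Dppa5a at 137 CPM. Lin28a (67.8 CPM), Lin28b (28.8 CPM) and Trim71 (271 CPM) were present in WT cells with no Pou5f1 UMI at about the WT level of the gated cells or above it. In dCD, Lin28a was lower outside the gate, at 37.8 CPM against 56.9 CPM in the gated cells. Dppa5a was detected after thinning in 4.69% of WT and 24.3% of dCD cells without Pou5f1, at median depths of 12775 and 10776.5 UMIs. A cell can lack a Pou5f1 UMI by chance, and free RNA adds UMIs, so the part of either in the dCD values was not tested.

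A narrower gate, at least 1 UMI of Dppa3 or 2 of Prdm1 and no UMI of Klf4, took 86 WT cells (6.07%, 4.89 to 7.45%) and 97 dCD cells (5.71%, 4.65 to 6.92%). It follows the thresholds of the study's methods, read here as raw UMIs. The study placed most such WT cells in its PGCLC cluster and many such dCD cells in clusters without a defined identity. Similar shares therefore do not make the gated cells 1 cell type in both libraries. Within it 0 of the 9 genes were 2-fold higher in dCD and 1 was lower, where 13.6% of 10609 genes were higher and 3.78% lower. The lower gene was Tdh, at 292 CPM in WT (265 to 322) and 135 CPM in dCD (117 to 156), a 2.16-fold difference (1.81 to 2.57) that 3.04% of genes exceeded in that direction. It fell below 2-fold with the mean of single-cell CPM (log2 -0.94 against -1.10) and with the gate on thinned counts (log2 -0.73). Utf1 was at 500.2 and 278 CPM (1.80-fold lower, 1.59 to 2.04), L1td1 at 438 and 342 CPM and Dppa4 at 97.6 and 75.7 CPM. Dppa2 was at 40.6 and 58.3 CPM (1.44, 1.01 to 2.05) and Dppa5a at 2140 and 2420 CPM (1.13, 1.08 to 1.19). Trim71 was at 142 and 190 CPM (1.34, 1.11 to 1.61), and Lin28a and Lin28b could not be told apart between the libraries. TMM factors moved each log2 ratio by -0.15 here and the share of higher among all genes past 2-fold from 78.2% to 67.7%.

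**Figure D5:**
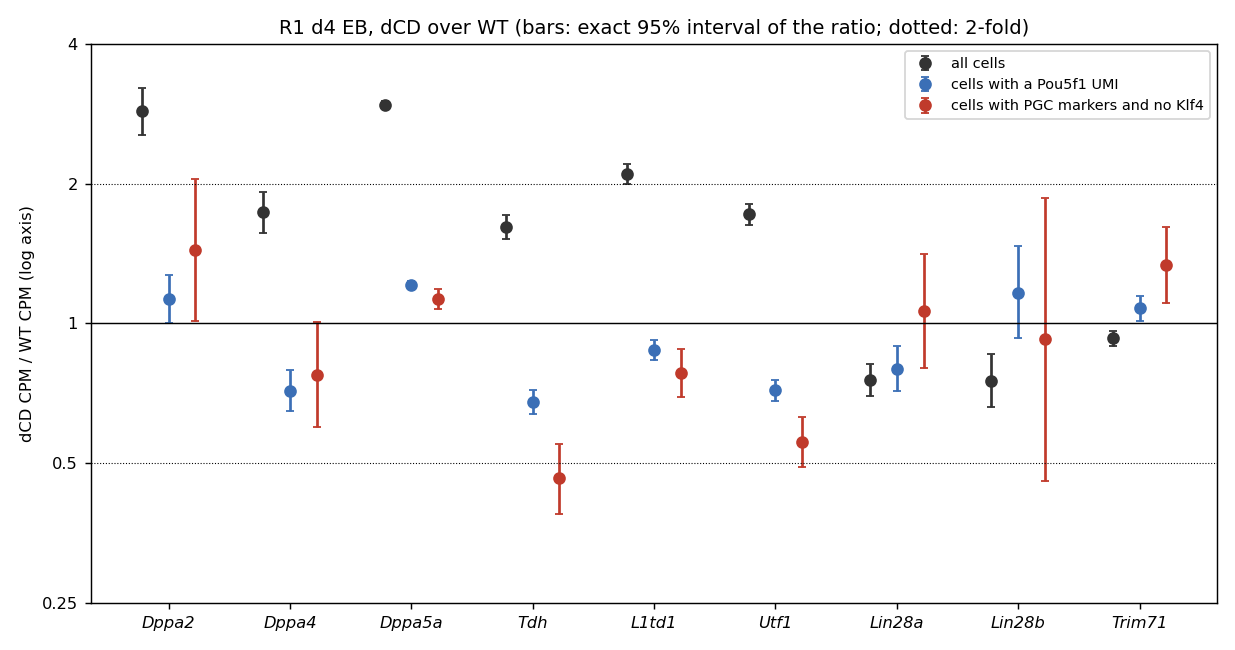
Ratio of dCD to WT CPM (log axis) for each gene over all R1 d4 EB cells (black), cells with a Pou5f1 UMI (blue) and cells with PGC markers and no Klf4 (red); bars are exact 95% intervals of the ratio and dotted lines mark 2-fold. Dppa5a (2.95), Dppa2 (2.86) and L1td1 (239 against 114 CPM) exceed 2-fold over all cells and none does with Pou5f1, and Tdh lies at 0.464 among cells with PGC markers.

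Other cell types moved with the same comparison. Over all cells, the summed level of the 6 extraembryonic ectoderm markers was 24.4 CPM in WT and 227 CPM in dCD, and that of the 6 extraembryonic mesoderm markers 968 and 226 CPM. Within the cells with Pou5f1, 3 of 5 detected ectoderm markers were 2-fold higher in dCD (summed level 38.9 and 175 CPM), 5 of 6 mesoderm markers lower (392 and 137 CPM) and 5 of 6 PGC markers lower (324 and 126 CPM). In the narrower gate 4 of 4 detected ectoderm markers were higher (73.4 and 563 CPM), and of the PGC markers Dnd1 and Nanos3 were lower. The part of these differences in the members' values was not tested. Of the 20 one-carbon genes, 1 (Gldc, 16.4 and 35.4 CPM) was higher over all cells and 0 lower, and of the 21 LIN28 and let-7 genes 0 were higher and 4 lower. Hmga2 among them was at 600.0 and 168 CPM over all cells and at 213 and 80.2 CPM in the cells with Pou5f1.

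Dppa2 UMIs per 100 Dppa4 UMIs were 66.0 in WT (57.8 to 75.2) and 109 in dCD (100.3 to 118) over all cells, and 66.3 and 104 within the cells with Pou5f1. After thinning, 71.7% of WT Pou5f1 cells with Dppa2 held Dppa4 against 18.2% of those without, and in dCD the shares were 50% and 22.2%. No intervals were computed for these shares, so no difference between WT and dCD is read from them. The variance of Dppa2 UMIs over their mean, at the same thinned depth, was 1.47 in WT and 2.49 in dCD cells with Pou5f1. Among those dCD cells, 19 had at least 2 UMIs of a list of 2-cell genes and held 110 Dppa2 and 16 Dppa4 UMIs. The other 1190 held 1018 and 1065. Over all dCD cells, 31 such cells held 153 and 20. Their part in the number per 100 Dppa4 UMIs and in the variance was not tested. At least 5 of the 9 genes were detected in 48.3% of WT and 43.4% of dCD cells with Pou5f1, and in 0.102% and 1.62% of those without.

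The genes whose pattern was most like each of the 9 were ranked by Pearson's r of log2(CPM + 1) over 10 groups of E14Tg2a cells, among 10924 genes with at least 200 UMIs. The 4 EB groups come from 2 libraries, so the groups are not independent and r is a description. Most like Dppa2 were 1700001L05Rik (r = 0.970), Apobec3 (0.962) and Rex2 (0.960), and Dppa4 came at rank 43 (0.908). By Spearman's rho over the same 10 groups Dppa4 came at rank 1 for Dppa2 (0.976), so its rank depends on the measure. Most like Dppa4 were Zfp990 (0.983), Zfp982 (0.974) and Zfp985 (0.971), and most like Dppa5a Rbmxl2 (0.972), Zfp990 (0.966) and Rnf17 (0.961). Most like Tdh were Lncenc1 (0.983), Zfp988 (0.981) and Zfp936 (0.971), and most like Utf1 Zfp219 (0.976), Platr10 (0.971) and Slc35f2 (0.971). Among the genes most like L1td1 were Gpn2 (0.960) and Zmiz2 (0.955). Most like Lin28a were Tulp3 (0.933), Pigf (0.932) and Jade2 (0.903), most like Lin28b Fgf13 (0.978), Nudt11 (0.947) and Fjx1 (0.944), and most like Trim71 Gbp4 (0.921), Cdx4 (0.914) and Arl4d (0.893).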

How the data were processed

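The data are UMI counts per gene and cell that the authors deposited as 2 tables, with no further normalization by gene length. Per the labels and the study's methods, the E14Tg2a counts came from 10x 3′ v2 libraries processed with Cell Ranger 2.1.0 against mm10 and aggregated to equal mapped reads per cell. The R1 counts came from 10x 3′ v3 libraries, also on mm10, from which the authors removed cells with under 2000 detected genes, and the counting program is not given in the sources used here. Each library was assigned from its label. Of 135 barcodes listed as PGCLC, 135 were found, and 27645 of 27998 identifiers had a symbol.

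Here, UMIs were pooled per group and scaled to CPM (Python 3.11.15, numpy 2.4.6, scipy 1.17.1). Genes with at least 10 UMIs over both groups were counted as 2-fold higher or lower on log2(CPM + 1). For shares of cells, every cell was thinned to 15374 (E14Tg2a) or 6831 (R1) UMIs and shallower cells were left out. EB cells were clustered by k-means (k of 3 and 4) on 20 principal components of 2000 variable genes. Doublets were kept and their removal with Scrublet (scanpy 1.11.5), which marked 0.589% to 6.23% of a library, was an alternative. Libraries shared at most 2 cell barcodes. Alternatives used TMM (edgeR 4.0.16) and median-of-ratios factors (DESeq2 1.42.0), another pseudocount, fold limit, gate, depth and weight of cells. The named genes are the 9 members, the gene lists' members past 2-fold, up to 5 a list, the gate genes, the mutated genes and, per member, the 3 genes with the most alike pattern, of which some are not reported here. The members and lists were chosen with earlier results of these data known. Scripts were tested on simulated counts. A count of 0 allows up to 3 counts.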

Additional observations from a re-analysis of the deposited data

How the results depend on the processing

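No paired analysis was possible because each condition has 1 library and the results come from no test. No result reversed a 2-fold call. With a limit of 1.5-fold in place of 2-fold, the number of the 9 genes that were lower was 1 in d1 EpiLC against 2i ESC (0 at 2-fold), 4 in d2 against d1 EpiLC (2), 1 in listed d2 PGCLC against other cells (0), 3 in d2 PGCLC against d2 EpiLC (1) and 2 in the R1 cells with PGC markers (1), and the number higher was 4 in d4 against d2 PGCLC (1) and 6 in dCD against WT (3). Median-of-ratios factors gave 0 genes higher in d2 against d1 EpiLC (1 with total UMIs) and 3 higher in d4 against d2 PGCLC (1), and TMM gave 2 for the latter. Thinning gave 0 genes lower in listed d4 PGCLC against other cells (1, Lin28b). In the R1 cells with PGC markers, 0 genes were lower with the mean of single-cell CPM and with the gate on thinned counts (1, Tdh). The cause of these moves was not tested. Without thinning, at least 5 of the 9 genes were detected in 87.9% of listed and 15.0% of other d2 cells (69.2% and 5.61%), and in 17.4% of WT and 42.3% of dCD cells (13.7% and 31.6%). Of the 27 genes ranked as most alike, 2 were shared when ranked by Spearman's rho and 12 when ranked over 8 libraries. Of 108 log2 ratios, TMM moved 4 and median-of-ratios factors 6 across the 2-fold limit, thinning 4, single-cell means 3 and doublet removal 0. A pseudocount of 0.1 CPM moved 0. Few UMIs limit Lin28b and, in EpiSC, Dppa2, Dppa4 and Dppa5a, although the EpiSC library was not shallow (median of 31587 UMIs per cell, against 33971 in 2i ESC).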

Other observations

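The R1 dCD library held cells with transcripts of the 2-cell program, a transient ESC state marked by Zscan4 genes. Over a list of 12 genes found in the table (Zscan4 and Tcstv genes, Usp17lc, Gm4340 and others, some of them known to need DPPA2 and DPPA4), 31 of 1699 dCD cells held at least 2 UMIs (1.82%, 1.24 to 2.58%), and 0 of 1416 WT cells did, which allows a share of up to 0.212%. The list summed to 28.8 CPM in dCD and to 1 UMI in WT, and 5 of its 6 genes with at least 10 UMIs were 2-fold higher in dCD and 0 lower. These cells were picked by that list after the values had been seen, and the picking did not use the 9 genes. In the 31 cells Dppa2 was at 450.4 CPM, against 47.1 CPM in the other dCD cells (ratio 9.55, 8.01 to 11.3), with a UMI in 90.3% and 28.5% of cells. Dppa4, the partner of DPPA2, was at 58.9 against 48.7 CPM (1.21, 0.736 to 1.88). Dppa5a was higher in them, at 4772 against 1876 CPM (2.54, 2.42 to 2.67). Utf1 was at 76.5 against 187 CPM (0.409, 0.267 to 0.601) and Trim71 at 109 against 237 CPM (0.459, 0.323 to 0.633), and Lin28a had 3 UMIs. The median depth was 10910 UMIs in the 31 cells and 11784 in the others. Without such cells the dCD over WT log2 ratio of Dppa2 was 1.30 in place of 1.47 over all cells and 0.04 in place of 0.17 in the cells with Pou5f1.

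In E14Tg2a, 9 of 309 S+L ESC (2.91%, 1.34 to 5.46%) and 0 of 227 2i ESC held at least 2 UMIs of the list, and 0 of 227 allows up to 1.32%. Dppa2 was 1.71-fold higher in the 9 cells (1.24 to 2.31) than in the other S+L ESC, which were at 59.3 CPM, and Dppa4 at 81.6 and 73.6 CPM (1.11, 0.775 to 1.54). The 9 cells were deeper, with a median of 62299 against 28831 UMIs, and the part of depth or of doublets in this was not tested. With 1 library per condition, the difference between dCD and WT in the number of such cells cannot be told apart from a difference between libraries or clones.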
